A study of Drosophila melanogaster with 62 samples.

Results

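The genes described here are 6 components of cyclic AMP (cAMP) signalling in Drosophila melanogaster, taken by name and gene ID: dnc, rut, Pka-C1, Pka-R1, Pka-R2 and Akap200. They are 6 of the 11544 genes that have at least 2 segments in the authors' annotation, at least 1 of them marked as 3′ UTR. cAMP is a second messenger that is made by adenylyl cyclases and broken down by phosphodiesterases. It binds the regulatory subunits of protein kinase A (PKA) and frees the catalytic subunits, which then phosphorylate their targets. In the fly brain the pathway is known for its role in learning and memory, and dnc (dunce) and rut (rutabaga) are classical memory genes. The 3′ UTR of many neuronal mRNAs is lengthened by the choice of a more distal polyadenylation site, and ELAV, FNE and RBP9 are paralogous neuronal RNA-binding proteins, of which ELAV is known to promote that choice.

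Stranded poly(A) RNA was sequenced from pooled male embryos of wild type and of mutants of elav, fne and rbp9, named as in the labels, which give no alleles. In the first experiment, embryos of 14 to 16 h (early) gave 3 libraries per genotype, from wild type, the mutants of elav, of fne and of rbp9 alone, and the combined mutants elav-fne, elav-rbp9 and elav-fne-rbp9. Embryos of 18 to 22 h (late) gave 3 libraries of elav, 4 of fne, 5 of elav-fne and 4 of wild type. A further 3 fne-rbp9 libraries carry the late stage in the labels but belong to an early table, so their stage is unclear. In the second experiment wild type, nFne mutants and elav-nFne mutants had 3 libraries apiece at each stage. The labels do not explain the name nFne, and it is used here as a group name. Wild-type male adult heads gave 2 RNA libraries, and 2 ELAV iCLIP libraries from heads are not analysed here.

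For the embryos the authors deposited comparisons of mutant with wild type, not levels per library, so no value per embryo sample, depth or replicate spread can be given. The first experiment has 10 such tables, and each lists genes in which the use of a 3′ segment, relative to the rest of the gene, was lower in the mutant. In every row the log2 fold is at most -0.75 and the adjusted p-value is below 0.0001. A gene that is not listed may be unchanged, higher, or too weakly changed or covered to pass these limits. All early tables share their wild-type libraries, as do all late tables, and the labels do not say if replicates are separate crosses or collections. The authors' p-values thus reflect spread among the sequenced libraries alone, and that spread may be technical. No level of elav, fne or Rbp9 per embryo library was used here, so the genotype labels were not checked.

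Of the 6 cAMP genes, 3 were listed in at least 1 of the 10 comparisons and 3 in none. The genes were chosen with earlier results of these data known, so this count beside the background is description only. Of all 11544 genes, 415 (3.59%) were listed at least once, and of the 5501 genes with at least 2 segments marked 3′ UTR in either annotation, as all 6 members have, the share was 7.54%. The phosphodiesterase gene dnc was listed in 6 comparisons, the PKA anchor gene Akap200 in 3 and the regulatory subunit gene Pka-R2 in 1. The adenylyl cyclase gene rut, the catalytic subunit gene Pka-C1 and the regulatory subunit gene Pka-R1 were listed in none. The folds of the 3 listed genes lay between -0.98 and -2.97 on the log2 scale in the authors' deposited tables.

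**Figure D1:**
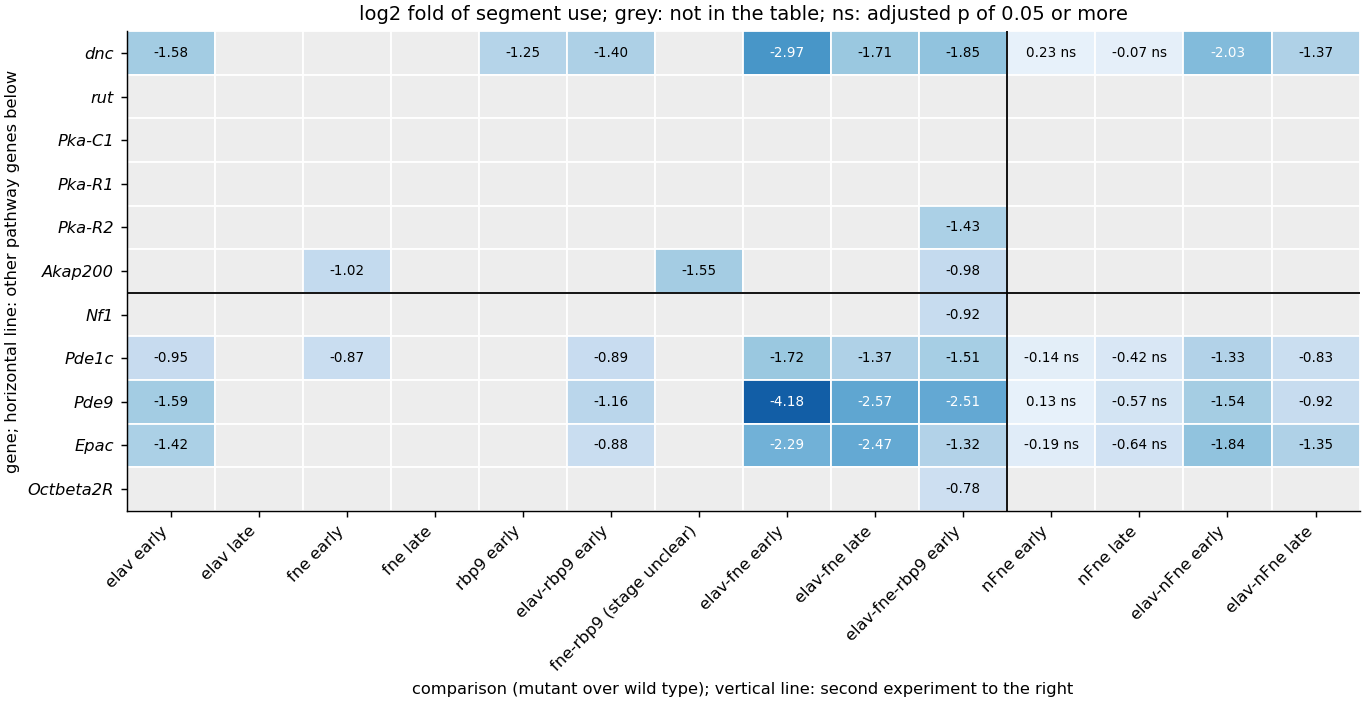
Log2 fold of the use of a segment (mutant relative to wild type) for the 6 cAMP genes and, below the horizontal line, the 5 other pathway genes listed at least once, in 10 comparisons of the first experiment and 4 of the second, as the authors deposited it. Grey cells are genes not in a table and ns marks an adjusted p-value of 0.05 or more. dnc fills 6 of the 10 first columns, Akap200 fills 3 and Pka-R2 fills 1, and the rows of rut, Pka-C1 and Pka-R1 are empty.

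The share of all genes listed in any single comparison was lower than the 3.59% over all 10. In elav early embryos 1 of the 6 cAMP genes (dnc) was listed, against 1.6% of the 11544 genes. In elav late embryos 0 of 6 were listed, against 0.632%. In the fne comparisons Akap200 was the member listed early, against 0.502% of all genes, and late embryos had 0 of 6, against 0.0693%. The rbp9 list held dnc, against 0.052% of all genes, and the elav-rbp9 list held dnc as well, against 1.29%. The fne-rbp9 list held Akap200, against 0.338%. Loss of elav and fne together gave 1 of 6 (dnc) at both stages, against 2.04% early and 1.49% late. The elav-fne-rbp9 list, with the most genes, held 3 of 6 (dnc, Akap200 and Pka-R2), against 2.46%. The 6 genes have more 3′ UTR segments than most: 3 to 6 each in the early annotation, where the median gene has 1 and 17.2% of genes have at least 3. Every listed gene has at least 2 segments marked 3′ UTR, so shares among such genes are higher. Of the 5046 such early genes, elav listed 3.67%, fne 1.15%, rbp9 0.119%, elav-rbp9 2.95% and fne-rbp9 0.773%. The elav-fne list held 4.66% of them and the elav-fne-rbp9 list 5.63%. Of the 5048 such late genes, elav listed 1.45%, fne 0.158% and elav-fne 3.41%. A gene with more segments has more that can be listed, and the part of this in the counts of members was not tested.

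dnc encodes a cAMP-specific phosphodiesterase, the enzyme that ends the cAMP signal. The gene lies on the plus strand of chromosome X (dm6, chrX:3176440-3343767, FBgn0000479). Its 17 annotated transcripts fall into 2 kinds at the 3′ end, with 10 that have a 3′ UTR of 154 bases and 7 that have 4594 bases. The authors' early annotation cut the gene into 39 segments, of which 5 were marked as 3′ UTR. The listed early segment was the fourth of these 5 (chrX:3341539-3343420, 1882 bases), of type TE in the authors' undefined code. It holds no coding base, begins 2365 bases of 3′ UTR after the stop codon and ends 347 bases before the annotated end of the gene. It is annotated in the 7 long transcripts and in none of the 10 short ones. The early segments of 1713, 500 and 348 bases are in the same 7 transcripts and were not listed. Each comparison holds 1 row per gene, so absence of a segment does not show that its use was unchanged. In late embryos the listed segment was 1990 bases long (chrX:3341431-3343420) and held all 1882 bases of the early segment.

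**Figure D2:**
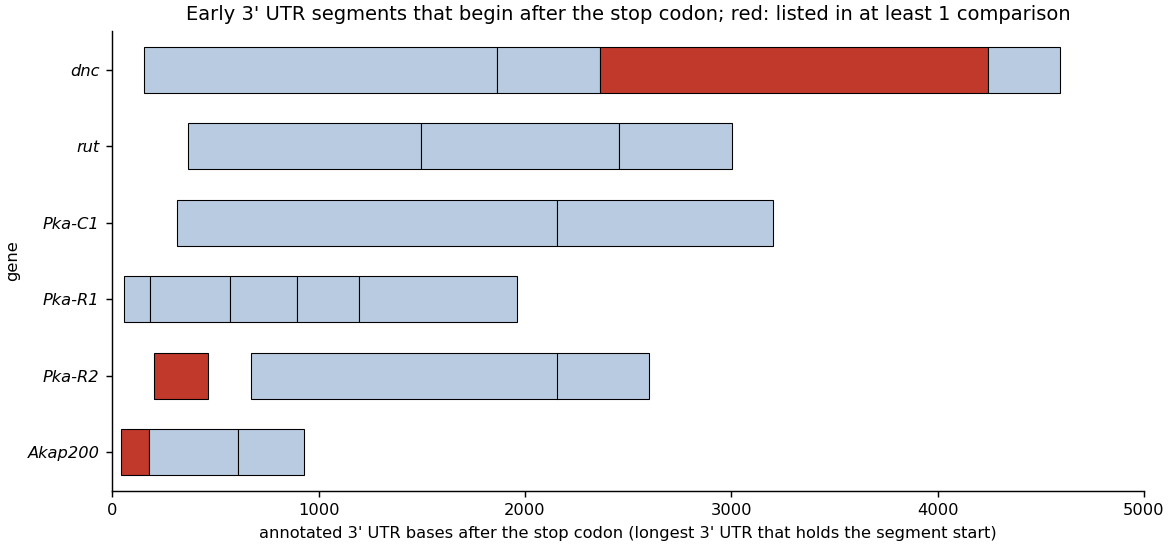
Segments of the early annotation that begin after the stop codon, by annotated 3′ UTR bases from the stop codon in the longest 3′ UTR that holds the segment's start. Segments listed in at least 1 comparison are red and the others blue. The listed dnc segment begins at 2365 bases, the Akap200 segment at 44 bases and the Pka-R2 segment at 203 bases.

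The dnc segment lies within the span of lncRNA:CR44886 (FBgn0266180, chrX:3313333-3348400), a gene on the opposite strand. It overlaps 0 annotated exon bases of that RNA. The libraries are stranded, per the labels, but the sources used here do not say whether strand was used in counting. Without strand, reads from dnc and from unspliced RNA of the opposite strand cannot be told apart. The annotated exons of lncRNA:CR44886, 213 bases in all, had 2 reads in replicate 1 and 0 in replicate 2 of the adult head libraries, and the gene was listed in 0 of the 10 comparisons. Its level in embryos was not used here.

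The distal dnc segment was used less in 5 early mutants and 1 late mutant. For loss of elav in early embryos, the fitted use score in the authors' deposited table fell from 24.6 in wild type to 14.8 in the mutant. The log2 fold there was -1.58 ± 0.11 (approximate SE from the authors' statistic), or 66.5% lower use, with an adjusted p of 1.77e-43 in the authors' deposited table. It ranked 74 of 185 listed genes by size of fold, beside a list median of -1.41. The headers do not define the scale of the score, and a ratio of scores is smaller than the fold.

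The deepest of the 6 dnc folds was in elav-fne early embryos, where the score in the authors' deposited table fell from 18.6 to 6.90. The log2 fold in that deposited table of the authors was -2.97 ± 0.22, or 87.3% lower use, with an adjusted p of 8.51e-39. The list median was -1.73, and dnc ranked 60 of 235. The mean of the segment in the authors' deposited table, 43.5 normalised counts per kilobase, was the lowest of the 6 and implies 81.8 counts over the segment. Between the elav-fne and elav tables the dnc fold differed by -1.40 on the same segment, with an approximate SE of 0.25. This SE and those given below for other differences treat the 2 tables as independent, although early tables share their wild-type libraries, and no test of a difference was made.

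The loss of rbp9 was added to that of elav in the elav-rbp9 comparison and to that of elav and fne in the elav-fne-rbp9 comparison. In the authors' deposited table for elav-rbp9 early embryos the score fell from 20.6 to 13.1 and the log2 fold was -1.40 ± 0.13 (adjusted p 3.82e-23). This was 0.18 above the elav fold, with an approximate SE of 0.17. In elav-fne-rbp9 early embryos the score in the authors' deposited table fell from 22.8 to 12.5, with a log2 fold of -1.85 ± 0.12 (adjusted p 4.91e-48). The dnc fold was thus 1.12 smaller in size there than in elav-fne embryos, with an approximate SE of 0.25. The elav-fne-rbp9 list median was -1.54, and dnc ranked 118 of 284.

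dnc was also listed where rbp9 alone was lost. In the authors' deposited table for rbp9 early embryos the score fell from 20.4 to 13.7 and the log2 fold was -1.25 ± 0.14, or 57.9% lower use, with an adjusted p of 2.31e-16. That list held 6 genes in all, and dnc had the third smallest adjusted p. By size of fold the 6 genes in the authors' deposited table were rl (-6.56), Rala (-2.33), CG12164 (-1.64), dnc (-1.25), SelR (-1.04) and RpL27 (-0.78). Neither fne alone, early or late, nor fne-rbp9 listed dnc, so of the 4 comparisons with elav intact 1 listed it, and of the 6 with elav lost 5 did. In fne-rbp9, which also lacks rbp9, the stage of the libraries is unclear.

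In late embryos dnc was listed for elav-fne but not for elav. The authors' deposited table for elav-fne late embryos gives scores of 22.8 in wild type and 13.8 in the mutant and a log2 fold of -1.71 ± 0.09 (adjusted p 9.60e-83). The list median was -2.00, and dnc ranked 101 of 172. This fold was 1.27 smaller in size than the early elav-fne fold, with an approximate SE of 0.24, between segments that differ by 108 bases and stages that share no library. Absence from the elav late list does not show that the segment was unchanged.

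**Figure D3:**
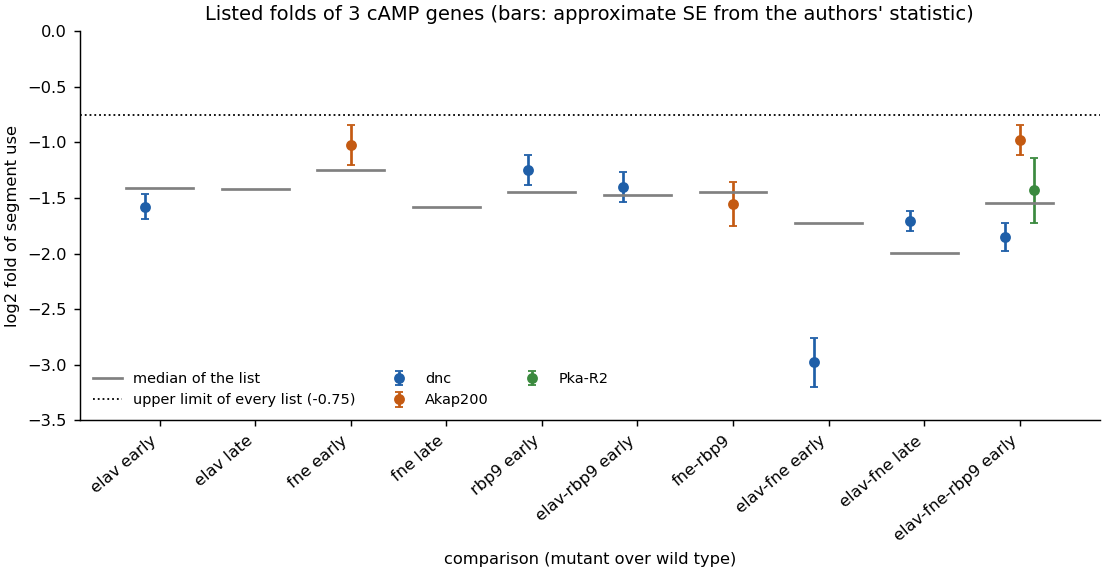
Log2 fold of segment use for dnc, Akap200 and Pka-R2 in each comparison that lists them, with the approximate SE as bars, the median of each list as a grey line and the limit of -0.75 as a dotted line. The dnc points run from -1.25 in rbp9 to -2.97 in elav-fne early embryos.

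Over the 6 tables the authors' dispersion of the dnc segment was 0.000877 to 0.00113, below the medians of those 6 lists, which were 0.00293 to 0.00875. The wild-type score of dnc in the authors' deposited tables ran from 18.6 to 24.6 although the 5 early tables share their wild-type libraries, so scores are comparable within a table and not between tables. Whole embryos were sequenced, so fewer cells of a type that uses the segment and less use of it per cell cannot be told apart.

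No gene was listed in exactly the 6 comparisons that listed dnc. SelR, a gene listed in all 10 comparisons and looked at after its values were seen, was the single gene listed in at least those 6, and its log2 folds differed from those of dnc by 0.59 on average.

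The second experiment gave values for 174 genes, which all come from the elav early list, and dnc was the 1 member among them. These tables report a fold whether or not it passed a limit. In the authors' deposited tables for nFne alone, the dnc fold was 0.23 early (adjusted p 0.216) and -0.07 late (adjusted p 0.994). Lower use with an adjusted p under 0.05 was called for 0 of 1 member at both stages, against 2.89% of 173 genes early and 14.5% late. In elav-nFne embryos the authors' deposited tables give dnc a fold of -2.03 early (adjusted p 3.11e-12) and -1.37 late (adjusted p 1.15e-16). dnc was therefore called at both stages, against 82.1% of 173 genes early and 90.7% of 172 genes late, so the call was common among genes taken from this list. Its rank by size was 71 early and 99 late, near the middle, and the table medians were -1.84 and -1.43. The folds of elav-nFne and nFne differed by -2.26 early and by -1.29 late for dnc. That difference was not tested, and both share their wild-type libraries.

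Akap200 encodes a protein that binds the regulatory subunit of PKA and holds the kinase at the membrane and cytoskeleton. It lies on the plus strand of chromosome 2L (dm6, chr2L:8415690-8431297, FBgn0027932), and its 7 transcripts have 3′ UTRs of 177, 610 or 930 bases. The listed segment was the same in all 3 tables (chr2L:8430412-8430544, 133 bases, type TE). It begins 44 bases after the stop codon, lies in the 3′ UTR of all 7 transcripts and ends at the annotated end of the shortest. In place and size it thus differs from the dnc segment, being proximal and short. The segments further along its 3′ UTR were not listed.

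All 3 lists that held Akap200 come from mutants that lack fne, and 1 of them also lacks elav. In the authors' deposited table for fne early embryos the score fell from 14.5 to 10.3, with a log2 fold of -1.02 ± 0.18 (adjusted p 4.34e-06). In fne-rbp9 embryos it fell from 14.6 to 8.67 in the authors' deposited table, with a log2 fold of -1.55 ± 0.20 (adjusted p 1.59e-11). In elav-fne-rbp9 early embryos the authors' deposited table gives a fall from 18.3 to 13.3 and a log2 fold of -0.98 ± 0.13 (adjusted p 2.59e-11). By size these folds ranked 36 of 58, 17 of 39 and 228 of 284. The fne-rbp9 fold was 0.53 deeper than the fne fold, with an approximate SE of 0.27. The stage of the fne-rbp9 libraries is unclear, so genotype and embryo age cannot be told apart in that fold or in this difference. Akap200 was not listed in elav-fne embryos of either stage, which also lack fne, nor in fne late embryos.

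The mean of the Akap200 segment scaled to its width was 367, 347 and 648 normalised counts per kilobase in the authors' deposited tables, in the order above. With a width of 133 bases this implies 48.8, 46.2 and 86.2 counts, beside 81.8 to 158 for the 6 dnc entries. The first and second of these lie below all of the dnc entries and the last lies within their range. Another 2 genes were listed in exactly the 3 comparisons that listed Akap200. These were RanBP3, whose log2 folds differed from those of Akap200 by 0.31 on average, and CG9171, whose folds differed by 0.50.

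**Figure D4:**
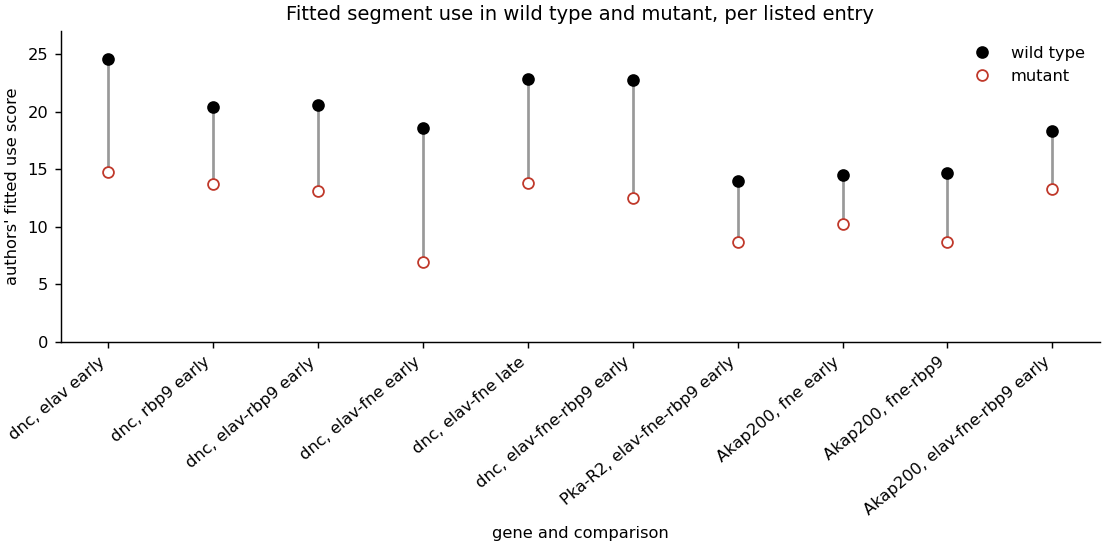
The authors' fitted use score of the listed segment in wild type (filled) and mutant (open) for each of the 10 entries of dnc, Pka-R2 and Akap200. The mutant score is below the wild-type score in all 10, which the lists require. Scores are comparable within an entry and not between comparisons. In elav-fne early embryos the dnc score falls from 18.6 to 6.90.

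The regulatory subunit genes Pka-R1 and Pka-R2 encode the proteins that hold PKA inactive until cAMP binds. Pka-R2 lies on the minus strand of chromosome 2R (dm6, chr2R:9993890-10026042, FBgn0022382) and has 4 transcripts with 3′ UTRs of 140 to 2601 bases. It was listed in 1 comparison, elav-fne-rbp9 early, for a segment of 259 bases (chr2R:9996962-9997220) with the type code AL. The segment is in 2 of the 4 transcripts: all of it is 3′ UTR in some transcript, and 116 of its bases are coding in another. Its score in the authors' deposited table fell from 14.0 to 8.65, with a log2 fold of -1.43 ± 0.29 (adjusted p 4.72e-05). That adjusted p was the largest among the 10 member entries, and the dispersion of 0.0168 in the authors' deposited table was above the list median of 0.00598. An implied 47.5 counts stand behind the value.

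Pka-R1 (chr3L:20816118-20836048, plus strand, FBgn0259243) has 18 transcripts with 3′ UTRs of 183 to 1962 bases, the longest in 13 of them. Its 6 early 3′ UTR segments were the most of any member, and none was listed. Pka-C1, which encodes the main catalytic subunit (chr2L:9682315-9699297, minus strand, FBgn0000273), has 3 transcripts with 3′ UTRs of 2155 or 3202 bases and 3 such segments. rut, which encodes a calcium- and calmodulin-responsive adenylyl cyclase (chrX:14787478-14826073, minus strand, FBgn0003301), has 7 transcripts with 3′ UTRs of 2192 or 3003 bases and 4 such segments. A 3′ UTR cut into several segments, some of them far from the stop codon, was thus present in these 3 genes too, and the lists do not hold them. Of the 27 early 3′ UTR segments of the 6 genes, 15 end within 10 bases of an annotated transcript end, and the others, such as the listed dnc segment, do not.

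Of 41 other genes of the pathway, 5 were listed at least once and 36 never, and 38 of the 41 belong to the 11544 genes of which 3.59% were listed at least once. Of the 41, 29 have at least 2 segments marked 3′ UTR, the 5 listed genes among them, beside the 7.54% given above for such genes. The pathway list too was chosen with earlier results of these data known, so these counts are description only. Among the 5 other phosphodiesterase genes, Pde1c and Pde9 were listed. Whether each of these 5 encodes an enzyme that breaks down cAMP, and not another cyclic nucleotide, was not checked here. Of the 9 effectors and transcription factors, Epac, a cAMP-activated exchange factor for Rap, was listed. The list of 11 cyclase and G protein genes contributed Nf1, whose product neurofibromin acts on Ras and is needed for normal cAMP signalling. The 10 receptors and ligands contributed Octbeta2R, an octopamine receptor that raises cAMP. None of the 6 other kinase and anchor genes was listed.

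Pde1c was listed in 6 comparisons, with log2 folds of -0.87 to -1.72 in the authors' deposited tables, over segments that differ between tables. Pde9 was listed in 5, with folds of -1.16 to -4.18 for a segment of 5577 bases in the authors' deposited tables. Its deepest fold, in elav-fne early embryos, was past that of dnc in the same table. Epac was listed in 5, with folds of -0.88 to -2.47 in the authors' deposited tables. Pde9 and Epac were listed in the same 5 comparisons as dnc apart from rbp9, and Pde1c in these and in fne early. Both Nf1 (-0.92) and Octbeta2R (-0.78) were listed in elav-fne-rbp9 early embryos alone, in the authors' deposited table. For Pde9 too the fold in elav-fne-rbp9 embryos was smaller in size than in elav-fne embryos, by 1.67 (approximate SE 0.47). For Epac it was smaller by 0.97 (approximate SE 0.23), and for Pde1c by 0.21, between segments that differ.

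In the second experiment Pde1c, Pde9 and Epac were the pathway genes present. In the authors' deposited tables all 3 were called lower in elav-nFne early and late, with folds of -0.83 to -1.84, and none was called in nFne, where folds ran from 0.13 to -0.64. The call rates of 2.89%, 14.5%, 82.1% and 90.7% given above for dnc apply to them as well.

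In wild-type adult heads all 6 cAMP genes were detected. The deposited TPM values of the 2 libraries, times the exon width of the gene, are whole multiples of the same constant, so they behave as reads per exon base on 1 scale for both libraries, and were not scaled to each library's own sum. The multiples sum to 63439635 in replicate 1 and 64476913 in replicate 2. The deposited values themselves sum to 360087 in replicate 1 and 365410 in replicate 2, below the fixed total of a standard TPM scale. TPM here is thus the authors' name for the unit, also in the limit of 1 TPM, and values are lower than standard TPM. Levels are per base of all annotated exons of a gene, so long exons used by few transcripts lower the value of a gene.

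Akap200 had the highest level, at 124.1 TPM in replicate 1 and 95.1 in replicate 2, a mean of 109.6 ± 20.5 (SD, n = 2). Pka-C1 followed with 72.0 and 72.9 TPM. The regulatory subunit genes came next, with 55.1 and 57.4 TPM for Pka-R1 and 49.2 and 47.7 TPM for Pka-R2. The enzymes that make and remove cAMP were lower, with 32.0 and 33.8 TPM for rut and 13.3 and 15.2 TPM for dnc. The order was the same in both replicates, and no neighbours in it overlapped, but with 2 libraries the spread is poorly known. The closest neighbours were Pka-R1 and Pka-R2, whose means differ 1.16-fold, and the mean of Akap200 was 7.70-fold that of dnc.

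By reads, the difference between the genes is smaller, since dnc has 16683 exon bases and Akap200 has 3972. The value of dnc corresponds to 16842 and 19332 whole multiples, and that of Akap200 to 37544 and 28780. Scaled to each library's own sum, the order of the 6 genes was the same and again no neighbours overlapped. By mean TPM the 6 genes lay between the 76.4th percentile (dnc) and the 96.8th percentile (Akap200) of the 17753 genes in the table. Of the 41 other pathway genes, 34 had at least 1 TPM in both libraries, and their highest mean was 48.9 TPM, in Galphas, the stimulatory G protein subunit. The heads also held the defining RNAs of neurons (6 of 6 markers at 13.4 TPM or more) and photoreceptors (4 of 4 at 524 TPM or more), as well as glia, muscle and, apart from Yp1 at 0.273 TPM, fat body. Summed over the markers, replicates 1 and 2 had 315 and 251 TPM for glia, 186 and 134 for fat body and 1283 and 1502 for muscle. The sums were 644 and 663 TPM for neurons and 13548 and 14209 for photoreceptors. The part of each cell type in the levels of the cAMP genes, or in their differences between replicates, was not tested.

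**Figure D5:**
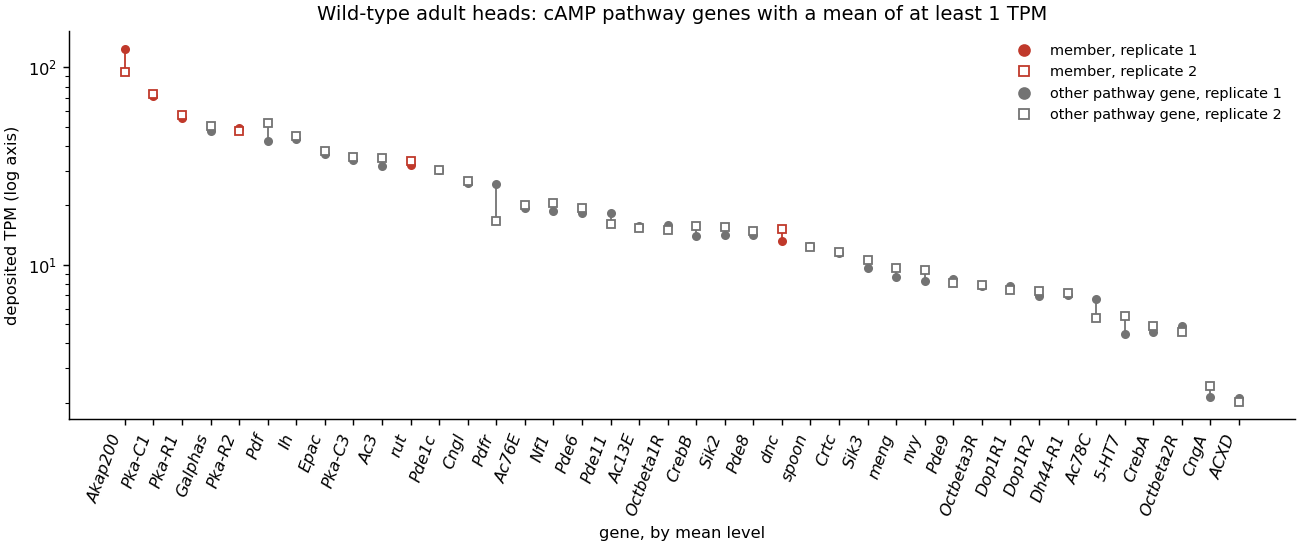
Deposited TPM in wild-type adult heads on a log axis for the 6 cAMP genes (red) and the other pathway genes with a mean of at least 1 TPM (grey), with replicate 1 as filled circles and replicate 2 as open squares. The members span 13.3 to 124.1 TPM, and Akap200 shows the widest gap between replicates among them.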

How the data were processed

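The authors' 10 embryo tables of the first experiment hold a log2 fold of segment use, a p-value and adjusted p-value, a fitted use score per condition, a dispersion and a mean normalised signal per segment, per the file headers. The program behind them is not given in the sources used here. Segment coordinates are dm6, per the submitters' processing notes, and the segment files were written with rtracklayer 1.40.5, per the file headers. For the second experiment 4 tables give, per gene, a log2 fold weighted over segments, with the lowest of the segments' adjusted p-values, per the file headers. Adult head levels are in the unit that the authors deposited and named TPM, whose sums lie below the total of a standard TPM scale. The product of value and exon width was a whole multiple of 1 constant, to a tolerance of 1e-06, in 100% of the 14061 and 14251 genes above 0. No cell of these tables is a count per library, so no test was made here, and the p-values printed are the authors'.

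The 6 genes and the pathway and marker lists were chosen with earlier results of these data known. Genes were matched by name and gene ID. All members, each pathway gene listed at least once, and up to 3 genes listed in exactly the comparisons of a member are named. In entries of 1 segment the authors' p-value is the upper tail of a chi-square distribution at their statistic, so an approximate SE was taken as the absolute fold over the square root of that statistic. This was chosen after seeing the data. The authors' mean per segment scales as a count per kilobase: its log2 ratio to the count of the second experiment falls with log2 width with a slope of -0.95 over 132 genes. Implied counts are that mean times width in kilobases. Transcripts and stop codons came from Ensembl release 115 (BDGP6.54), which has the same assembly. The background is the share of 11544 genes with at least 2 segments, at least 1 of them marked 3′ UTR, that a table lists. Calculations used Python 3.11.15, numpy 2.4.6, pandas 2.3.3 and scipy 1.17.1, and plots used matplotlib 3.10.9. Of the steps, interval overlap, distance along the 3′ UTR and the approximate SE were tested on simulated data. The SE was tested on Poisson counts, without the extra spread of the authors' dispersion.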

Additional observations from a re-analysis of the deposited data

How the results depend on the processing

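Under a stricter adjusted p of 1e-06 the fne early list held 0 of the 6 genes, since Akap200 was lost, and with a mean of at least 50 normalised counts per kilobase the elav-fne early list held 0, since dnc was at 43.5, although its implied count was 81.8. The stricter p also removed Pka-R2 from the elav-fne-rbp9 list. Implied counts were under 50 for Pka-R2 and for Akap200 in fne early and fne-rbp9. In 36 other pairs of setting and comparison the count of members stayed within 1.5 times, a limit that a fall from 3 to 2 meets. Where the count was 0 to begin with, a stricter limit could only leave it at 0, so those pairs carry no information. A log2 fold of -1 or lower removed Akap200 from the elav-fne-rbp9 list. Leaving out fne-rbp9, an alternative chosen after seeing the data, lowered the count of comparisons listing Akap200 from 3 to 2. The other members are not in that list, so their counts could not change. Against genes with at least 2 segments marked 3′ UTR, also chosen afterwards, the background rose to 0.119% (rbp9) to 5.63% (elav-fne-rbp9). Among genes of at least 1 TPM in both head libraries the percentile of dnc was 53.6 and that of Akap200 93.8. A pseudocount of 0.1 moved the log2 level of Pka-C1 to 6.18 from 6.20. Scaled to each head library's own reads, an alternative added afterwards, dnc had 16.9 and Akap200 131 on that scale (reads per kilobase, relative to the library's sum). Sequence motif counts were not run. No paired analysis was possible because the embryo tables hold comparisons and no values per library, and the heads are 1 group. Depth of the embryo libraries is unknown.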
